A study of Mus musculus with 10 samples.

Results

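The cadherins and non-clustered protocadherins were taken as every gene of the deposited table whose symbol is Cdh or Pcdh followed by a number. The rule found 35 genes of 27933, 23 cadherins and 12 protocadherins, and left out the clustered Pcdha, Pcdhb and Pcdhg genes. Their UMI counts were followed in 32523 single retinal cells of 10 libraries. The cells came from mice of the Chx10-cre-GFP strain at postnatal day 19. Viable cells (Calcein Blue positive) were sorted for the absence of 3 signals: the GFP of the strain, CD133-APC and CD73-PE. All libraries share this strain, age and sort, so the comparisons were made between groups of cells of the same library, and CD133 is the product of Prom1, the gene of 1 of these groups. The labels name no separate animals behind the libraries, so the p-values rest on how far libraries vary, and that variation may be technical.

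Cadherins are calcium-dependent adhesion proteins that bind partners of their own or a related kind on a facing membrane. Classical cadherins of types I and II tie to actin through catenins, whereas the delta-1 and delta-2 protocadherins bind weakly and signal through their tails, several delta-2 members through the WAVE actin regulators. In the retina, members of both families mark neuron types and the layers of the inner plexiform layer in which those types make synapses, and Cdh8 and Cdh9 are known for steering bipolar cell axons to different layers. Amacrine cells are the interneurons of that layer and release mostly GABA or glycine.

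Groups of cells were set by UMI minimums on marker genes. The Gad gate (Gad1 and Gad2 together at least 2 UMIs, no Slc6a9) held 16415 cells that carry the GABA-synthesising enzymes, and the Slc6a9 gate (at least 2 UMIs of this glycine transporter, no Gad1 or Gad2) held 4556. The 6 type gates were Gjd2 at 3 UMIs or more (connexin 36, known from AII cells; 1940 cells), Chat and Slc18a3 together at 2 or more (cholinergic, the starburst cells; 651 cells), Slc17a8 at 2 or more (the glutamate transporter VGLUT3; 666 cells), Vip at 5 or more (930 cells), Npy at 10 or more (1548 cells) and Prom1 at 2 or more (1358 cells). Of the 6435 cells in a type gate, 631 lay in more than 1, among them 277 in both the Chat/Slc18a3 and the Npy gate. Levels are given as CPM, the gene's UMIs scaled to the total UMIs of the same gate and library (counts per 1000000). Each transcript gives 1 tag near its 3′ end, so no gene length enters.

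The libraries held 950 to 4738 cells and 6302659 to 26028492 UMIs, and by the labels batch 1 held 1 library, batch 2 held 5 and batch 3 held 4. Across the libraries 923 cell barcodes occurred more than once, and libraries 5 and 6 shared 312, against at most 59 in any other pair. Median depth differed between gates, from 3664 UMIs per cell in the Slc6a9 gate to 7767.5 in the Npy gate. The starburst markers (Chat, Slc18a3, Slc5a7, Sox2, Megf10, Fezf1) summed to a median of 1488 CPM in the Chat/Slc18a3 gate and to at most 351 CPM in any other gate. Chat and Slc18a3 set this gate, so part of that sum follows from the gating. Of the others, Slc5a7 stood at 277.5 CPM, Sox2 at 263.9, Megf10 at 9.6 and Fezf1 at 20.6 over the pooled cells of the gate. In the Npy gate, the next highest by the sum, these 4 were at 70.5, 66.7, 2.7 and 7.2 CPM. Narrow markers of bipolar cells, Müller glia or ganglion cells (3 of 5 present) were found in 449 cells. The wider marker lists planned first marked 14245 cells (43.8%), among them 70.0% of the Slc17a8 gate and 58.6% of the Vip gate, and the narrow rule was chosen after this was seen. The 5 AII markers, which include the gating gene Gjd2, summed to a median of 1836 CPM in the Gjd2 gate but to 7246 CPM in the Chat/Slc18a3 gate. Levels of single markers are those of the pooled cells of a gate, not medians over libraries. Calb2, a calcium-binding protein also known from starburst cells, stood at 6894 CPM in the Chat/Slc18a3 gate. Of the other markers, Prox1 was at 283 CPM in the Gjd2 gate and 27.0 CPM in the Chat/Slc18a3 gate, and Nfia at 228 and 23.2 CPM. The gates are called here by their gating genes. The 8 Müller glia markers, none at 0, summed to medians of 4472 CPM in the Gjd2 gate and 3678 CPM in the Slc6a9 gate, against 1629 CPM in the Gad gate. Car2 stood at 3871 and 3176 CPM over the pooled cells of the first 2 gates. The 7 genes of the dissociation stress list had a median sum of 565 CPM in the Slc6a9 gate, against 1255 CPM in the Gad gate. The part of these lists in the results was not tested.

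Protocadherins gave most of the counts of the family. The 4 delta-1 genes summed to 329 ± 64.6 CPM over all cells (mean ± SD, n = 10 libraries) and the 5 delta-2 genes to 394 ± 64.4 CPM, against 85.9 ± 13.2 CPM for the 5 type I and 175 ± 22.2 CPM for the 13 type II cadherins. By mean level over the 8 gates the leading genes were Pcdh7 (175 CPM), Pcdh17 (116 CPM), Pcdh10 (100.4 CPM), Pcdh9 (95.0 CPM), Pcdh8 (56.5 CPM) and Pcdh19 (49.7 CPM). The map of mean levels shows every member in the 8 gates.

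**Figure D1:**
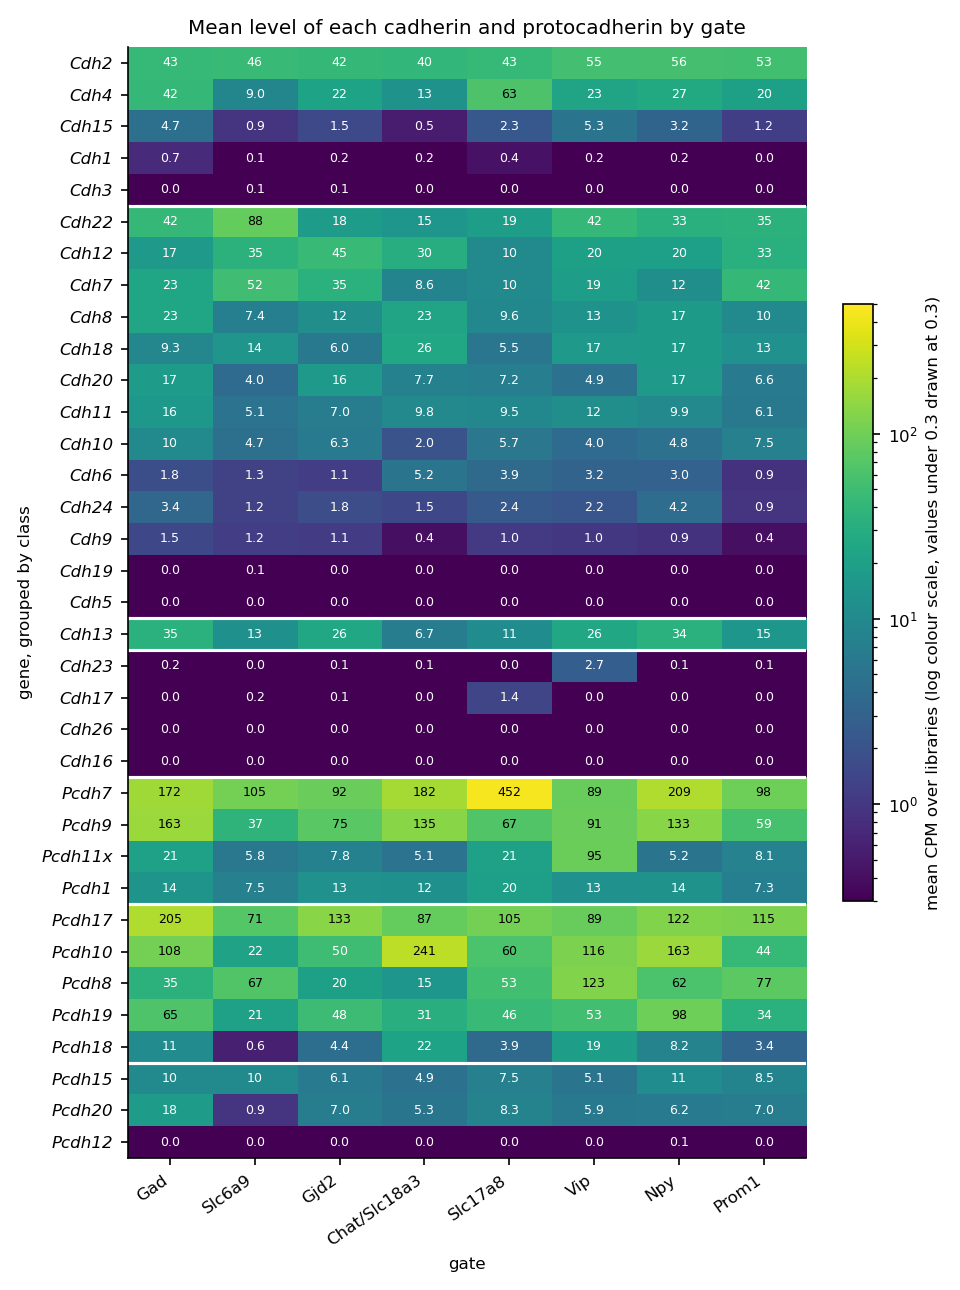
Mean CPM over libraries (number in each cell, log colour scale) of all 35 members, grouped by class, in the 8 gates. Pcdh7 in the Slc17a8 gate (452 CPM) and Pcdh10 in the Chat/Slc18a3 gate (241 CPM) are the highest values, and Cdh16, Cdh26, Cdh5 and Cdh19 are at or near 0 throughout.

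Among the type I cadherins, Cdh2 (N-cadherin, the general cadherin of neural tissue) ranged across the type gates from 40.5 CPM in the Chat/Slc18a3 gate to 56.4 CPM in the Npy gate. Cdh4 (R-cadherin) ranged from 13.1 to 62.7 CPM. Cdh15 (M-cadherin, known from muscle) reached, in the type gates, at most 5.28 CPM, and Cdh1 (E-cadherin of epithelia) and Cdh3 (P-cadherin) had 118 and 5 UMIs in all cells. Of the type II cadherins, Cdh22, Cdh12, Cdh7, Cdh8, Cdh18, Cdh20, Cdh11 and Cdh10 ranged from 5.66 to 36.5 CPM as means over the gates. Cdh6, Cdh24 and Cdh9 lay between 0.940 and 2.56 CPM. Cdh5 (the endothelial cadherin) had 7 UMIs and Cdh19 had 1.

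Cdh13, which lacks a cytoplasmic part and is held by a lipid anchor, ranged from 6.73 to 34.3 CPM across the type gates. Cdh16 (kidney cadherin) had no UMI among 171257947, which allows up to 0.0175 CPM (3 UMIs, counting error only), and Cdh26 had 6 UMIs. Cdh23, the hair cell tip link cadherin, had 28 UMIs, of which 14 lay in the 930 cells of the Vip gate, in 7 of its 10 libraries. Cdh17 (liver-intestine cadherin) had 15 UMIs, of which 7 lay in the Slc17a8 gate. These last 2 genes were singled out after their values were seen, and too few UMIs were present to test them. Pcdh15, the tip link partner of Cdh23, and Pcdh20 had 7.99 and 7.35 CPM as means over the gates, and Pcdh12 had 2 UMIs in all cells.

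All 35 members matched 1 gene record each in GENCODE M21 (GRCm38, the mm10 build that the submitters' processing notes name). Chromosome 8 holds 8 of them, and chromosomes 14 and 15 hold 5 each. The genes span from 4.54 kb (Pcdh8, chr14:79766775-79771312, minus strand) to 1550.4 kb (Pcdh15, chr10:73099342-74649737, plus strand). Pcdh10 (chr3:45378398-45435623, plus strand) and Pcdh18 (chr3:49743296-49757325, minus strand) lie on the same chromosome and were both high in the Chat/Slc18a3 gate and low in the Slc6a9 gate, whereas Pcdh8 was low and high in these gates. The 250 bases before the RefSeq start of these 3 delta-2 genes are therefore shown, from RefSeq on GRCm38.p6, 5′ to 3′ on the gene's strand, with any match to TATAAA on either strand in capitals:

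Pcdh10 promoter: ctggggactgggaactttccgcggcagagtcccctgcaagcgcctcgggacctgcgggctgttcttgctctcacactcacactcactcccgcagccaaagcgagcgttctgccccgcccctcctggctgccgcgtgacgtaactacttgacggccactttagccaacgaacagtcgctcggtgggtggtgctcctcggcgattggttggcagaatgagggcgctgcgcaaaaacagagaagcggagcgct

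Pcdh18 promoter: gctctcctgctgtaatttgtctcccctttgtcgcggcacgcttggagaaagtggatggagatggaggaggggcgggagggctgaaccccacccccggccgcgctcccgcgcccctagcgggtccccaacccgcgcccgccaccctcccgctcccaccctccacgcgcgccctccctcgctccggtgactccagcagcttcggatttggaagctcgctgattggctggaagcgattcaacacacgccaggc

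Pcdh8 promoter: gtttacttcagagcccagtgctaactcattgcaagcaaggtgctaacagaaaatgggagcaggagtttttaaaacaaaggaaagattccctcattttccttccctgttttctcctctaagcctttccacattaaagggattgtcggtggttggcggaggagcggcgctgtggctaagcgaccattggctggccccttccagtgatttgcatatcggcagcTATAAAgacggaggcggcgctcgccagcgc

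The windows are chr3:45378148-45378397 for Pcdh10, chr3:49757317-49757566 for Pcdh18 and chr14:79771313-79771562 for Pcdh8. Their GC content was 63.2%, 68.0% and 51.2%, against a mean of 53.2% over 32851 RefSeq windows of this length. Pcdh8 held 1 TATAAA, whose first base lies 30 bases before the start, and 12.4% of all windows held this motif. Pcdh10 and Pcdh18 held none. The letters CANNTG and TAATTA, present on either strand in 66.2% and 4.84% of all windows, were not found in the 3 sequences, which says only that these letters are not in these windows. RefSeq promoter entries were matched for 22 of the 35 members.

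Cells of the Slc6a9 gate carried less of most protocadherins than cells of the Gad gate and more of a few type II cadherins. Pcdh20, Pcdh18, Pcdh10, Cdh4, Cdh15, Pcdh9 and Cdh20 were lower by more than 2 log2 units, while Cdh7, Cdh12 and Cdh22 were higher by 1 log2 unit or more. Of 23 members tested, 6 were called higher (32.1% of all 11250 genes tested were) and 16 lower (29.1% of all genes), where called means an adjusted p below 0.05 (edgeR quasi-likelihood test, library as a block, Benjamini-Hochberg over all genes). Changes of at least 2-fold were called for 17 members (12.8% of all genes). The median log2 change was -1.54 over the members tested and 0.03 over all genes tested. The 12 members not tested were too low to pass the filter on low counts.

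Pcdh10, a delta-2 protocadherin that binds the WAVE complex, stood at 5.94, 21.8 and 35.4 CPM in the Slc6a9 gate (lowest, median and highest of 10 libraries), whereas the Gad gate had 75.1, 116 and 134 CPM (log2 change -2.38 ± 0.12 (SE), adjusted p = 2.11e-13). The ranges did not overlap. Pcdh20 had 0, 0.623 and 4.89 CPM against 10.1, 19.0 and 24.5 CPM (log2 change -4.56 ± 0.29 (SE), adjusted p = 1.35e-11), and Pcdh18 had 0, 0.306 and 2.13 CPM against 8.39, 10.1 and 14.3 CPM (log2 change -4.03 ± 0.31 (SE), adjusted p = 3.54e-10). Both were near 0 in the Slc6a9 gate in most libraries and separate from the Gad gate in all 10. For Cdh4 the levels were 5.2, 9.33 and 14.7 CPM and 36.4, 42.6 and 48.8 CPM (log2 change -2.33 ± 0.10 (SE), adjusted p = 2.61e-14), again without overlap.

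In the other direction, the type II cadherin Cdh7 had 29.4, 48.5 and 71.8 CPM in the Slc6a9 gate, whereas the Gad gate had 17.8, 22.7 and 28.3 CPM (log2 change 1.17 ± 0.08 (SE), adjusted p = 9.48e-11). Cdh12 had 22.0, 36.4 and 50.3 CPM against 14.3, 16.5 and 19.5 CPM (log2 change 1.15 ± 0.09 (SE), adjusted p = 4.32e-10). These 2 genes were higher in all 10 libraries with no overlap of the ranges. Cdh22 had 43.4, 94.4 and 129.9 CPM against 36.2, 42.3 and 50.7 CPM (log2 change 1.0 ± 0.14 (SE), adjusted p = 2.40e-06), overlapping, and Pcdh8 was higher in 9 of 10 libraries (log2 change 0.95). All 4 delta-1 protocadherins and 4 of 5 delta-2 were lower, whereas the 8 type II cadherins tested divided into 4 higher and 4 lower. Pcdh15 was the member not called (-0.03), and Cdh2 differed by 0.15.

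**Figure D2:**
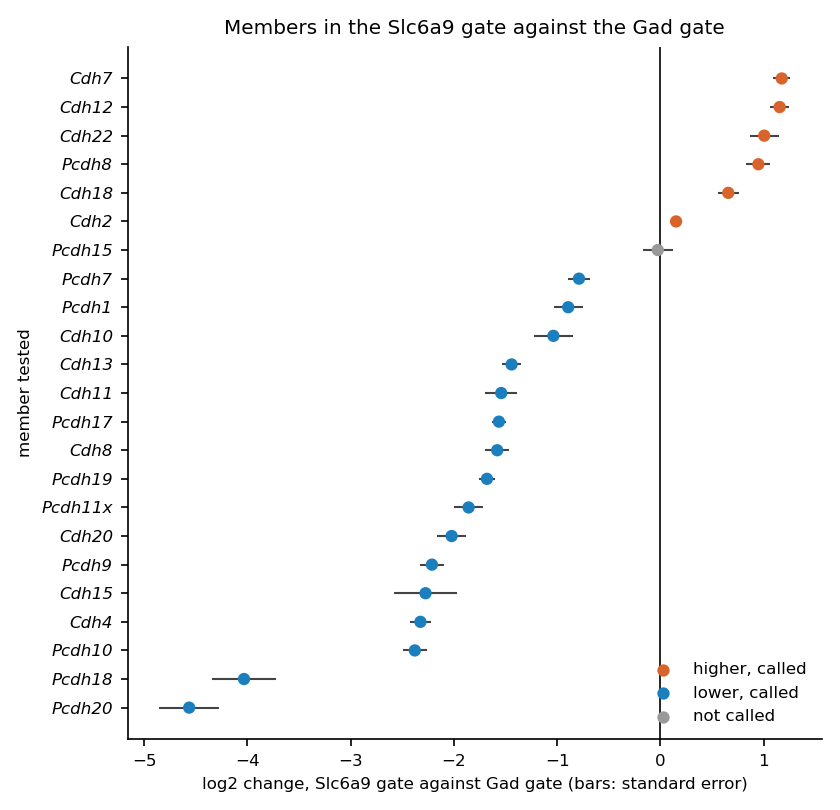
Log2 change of the 23 tested members in the Slc6a9 gate against the Gad gate, with standard errors, coloured by direction and call. The points run from -4.56 for Pcdh20 to 1.17 for Cdh7, and Cdh2 and Pcdh15 lie next to 0.

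Depth moved with this comparison, since the median cell had 3664 UMIs in the Slc6a9 gate and 5411 in the Gad gate. With cells of 3000 to 8000 UMIs alone, 20 of 22 members were called (52.9% of all genes). Batch also moved with some of the changes: 6 of 23 members (8.19% of all genes) changed by a different amount in batch 3 than in batch 2. The largest such difference was in Cdh22, which was higher by 1.48 log2 units in batch 2 and 0.25 in batch 3 (difference -1.23 ± 0.10 (SE), adjusted p = 6.56e-17). Pcdh10 was lower by more in batch 3 (-3.08 against -2.01 on the log2 scale), as were Pcdh9 (-2.76 against -1.83) and Pcdh7 (-1.37 against -0.49). The direction was the same in both batches for each of the 6.

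Each type gate was next compared with all other cells of the same library. As in the comparison above, most members given in full were picked by the same direction in every library. That agreement is therefore no further support for them. These 6 comparisons share most of their background cells, so a likeness between them is not a result in itself. Pcdh10 was higher in the Chat/Slc18a3 gate than in the other cells. It had 97.2, 271 and 303 CPM, against 59.0, 91.2 and 112 CPM in the other cells (log2 change 1.56 ± 0.08 (SE), adjusted p = 1.60e-15). It was higher in 10 of 10 libraries, although the lowest library of the gate lay within the range of the other cells. Pcdh18 (1.57), Cdh18 (1.40), Cdh12 (0.78) and Pcdh7 (0.28) were also called higher on the log2 scale. Against the cells of the Gad gate outside it, Pcdh7 was not among the members called. Pcdh10 (1.34), Pcdh18 (1.21), Cdh18 (1.64) and Cdh12 (1.08) were still called higher.

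Lower in the Chat/Slc18a3 gate were Cdh13, with 0, 7.38 and 11.1 CPM against 25.6, 30.1 and 35.4 CPM (log2 change -2.02 ± 0.19 (SE), adjusted p = 1.23e-09), and Cdh22, with 0, 15.3 and 26.9 CPM against 39.99, 53.1 and 63.0 CPM (log2 change -1.69 ± 0.17 (SE), adjusted p = 3.12e-09). Neither overlapped with the other cells. Cdh7 had 0, 7.30 and 23.0 CPM against 22.4, 29.4 and 32.8 CPM (log2 change -1.91 ± 0.22 (SE), adjusted p = 5.67e-08), and Cdh10 had 0, 0.707 and 6.14 CPM against 6.53, 9.85 and 11.7 CPM (log2 change -1.68 ± 0.33 (SE), adjusted p = 1.77e-04). With cells of 3000 to 8000 UMIs alone the call for Cdh10 did not hold (log2 change -1.42, adjusted p = 0.0614). The gate held 17 to 129 cells per library, so Cdh10 rested on few UMIs in each. In all, 5 of 22 members were called higher (16.8% of all genes) and 12 lower (18% of all genes), and 13 by at least 2-fold (11.1% of all genes). The median was -0.96 over members and -0.01 over all genes (log2). Isl1, which stands in the bipolar marker list and is also known from starburst cells, was at 809.6 CPM over the pooled cells of the gate. The bipolar marker Grm6 was at 13.4 CPM. The dissociation stress list summed to 160.5 to 1056 CPM in this gate (median 480.0) and to a median of 1127 CPM in all cells, and its part in the result was not tested. In batch 3, where 17 to 39 cells per library fell in the gate, 11 of 24 members were called (11.8% of all genes). No member's change was called different between batches 3 and 2 (0 of 25, against 1% of all genes, edgeR), and 5 at an unadjusted p below 0.05; DESeq2 was not run on this question.

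Cells of the Slc17a8 gate carried the highest level of any member in any gate. Pcdh7, a delta-1 protocadherin, had 305, 464 and 522 CPM there and 104, 152 and 191 CPM in all other cells (log2 change 1.56 ± 0.07 (SE), adjusted p = 8.21e-19). Every library of the gate lay above every library of the other cells. Cdh4 was higher too (log2 change 0.72 ± 0.10 (SE), adjusted p = 5.2e-07), in 10 of 10 libraries but with overlapping ranges. Pcdh1 was the other member called higher (0.51 on the log2 scale).

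The members lower in the Slc17a8 gate included Cdh22 (6.17, 19.4 and 33.8 CPM against 40.2, 52.3 and 62.9 CPM, log2 change -1.30 ± 0.14 (SE), adjusted p = 3.61e-09) and Cdh7 (0, 11.3 and 18.3 CPM against 22.1, 29.7 and 32.4 CPM, log2 change -1.27 ± 0.19 (SE), adjusted p = 4.60e-06), both without overlap. Cdh13 had 0, 10.2 and 28.5 CPM against 25.2, 30.1 and 35.03 CPM (log2 change -1.16 ± 0.22 (SE), adjusted p = 1.51e-04), with overlap. Of 24 members tested, 3 were called higher (10.6% of all genes), 11 lower (14.5%) and 5 by at least 2-fold (5.81%), with medians of -0.59 over members and -0.01 over all genes (log2). The 10 bipolar markers, none at 0, summed to 259 to 972 CPM in this gate (median 562) and to 247 to 371 CPM in all cells (median 315). Grm6 was at 22.7 CPM over the pooled cells of the gate, and the part of these markers in the result was not tested. Without the cells that carry narrow markers of other classes, 16 of 23 members were called (25.1% of all genes). Leaving out 1 library at a time gave 10 to 15 calls, for which the share over all genes is not given. The change differed between batches 3 and 2 for 3 of 25 members (1.44% of all genes), Pcdh7 (difference 0.57 ± 0.09 (SE), adjusted p = 2.25e-05), Pcdh9 (difference -1.03 ± 0.24 (SE), adjusted p = 0.00863) and Cdh18, which had no UMI in this gate in batch 3.

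The Slc17a8 gate was also set against the cells of the Slc6a9 gate outside it. There 10 of 11 members tested were called (35.7% of all genes), 6 of them higher. Pcdh7 was then higher by 2.57 ± 0.15 (SE), adjusted p = 8.12e-14, and Cdh4 by 3.56 ± 0.19 (SE), adjusted p = 1.06e-14. Pcdh10 turned from lower (-0.53 against all other cells) to higher (1.51 ± 0.17 (SE), adjusted p = 5.28e-08), as did Pcdh9 (-0.89 and 0.92) and Pcdh17 (-0.75 and 0.68). Of the gated cells, 28.5% were in the Slc6a9 gate and 8.4% in the Gad gate. A further 17.0% had at least 2 UMIs of Gad1 and Gad2 together and at least 2 of Slc6a9. The background cells carried no Gad1 or Gad2 by their gating, and the part of this in the turns was not tested.

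In the Gjd2 gate the type II cadherin Cdh12 was higher. Its level was 30.2, 45.3 and 53.3 CPM in the gate and 15.7, 17.7 and 19.1 CPM in the other cells (log2 change 1.41 ± 0.08 (SE), adjusted p = 5.98e-12), without overlap in any library. Cdh7 was the other member called higher (0.37). Cdh22 was lower without overlap (3.78, 16.1 and 30.2 CPM against 41.7, 55.0 and 66.6 CPM, log2 change -1.42 ± 0.10 (SE), adjusted p = 3.28e-10), as was Pcdh11x (0, 8.32 and 15.1 CPM against 17.3, 19.4 and 22.9 CPM, log2 change -1.34 ± 0.18 (SE), adjusted p = 2.24e-06).

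Cdh15 (0, 1.73 and 3.47 CPM against 2.74, 3.88 and 5.63 CPM, log2 change -1.34 ± 0.29 (SE), adjusted p = 6.58e-04) and Pcdh20 (1.78, 6.86 and 12.8 CPM against 11.1, 16.1 and 23.8 CPM, log2 change -1.17 ± 0.15 (SE), adjusted p = 1.95e-06) were lower with overlapping ranges. The call for Cdh15 did not hold in batch 3 alone (adjusted p = 0.315) or with the gate minimum doubled (adjusted p = 0.0945). In all, 2 of 24 members were called higher (23.9% of all genes), 17 lower (24.5%) and 6 by at least 2-fold (5.8%). The medians were -0.72 over members and 0.00 over all genes (log2). Of the gated cells, 48.1% lay in the Slc6a9 gate, 39.0% in batch 2 and 62.8% in batch 3. Batches 3 and 2 differed for 5 of 25 members (8.07% of all genes), all with lower values in batch 3. These were Cdh4 (difference of the log2 change -1.28 ± 0.22 (SE), adjusted p = 9.21e-05), Pcdh7 (difference -1.01 ± 0.14 (SE), adjusted p = 3.48e-06), Pcdh17 (-0.72 ± 0.09 (SE), adjusted p = 7.85e-07), Pcdh9 (-0.70 ± 0.14 (SE), adjusted p = 4.41e-04) and Cdh10 (-1.73 ± 0.43 (SE), adjusted p = 0.00646). The part of the shift in make-up in these differences was not tested.

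The whole Gjd2 gate was also set against the cells of the Slc6a9 gate outside it, which by their gating carried no Gad1 or Gad2. Of the Gjd2 gate itself, 11.4% of the cells lay in the Gad gate. A further 23.6% had at least 2 UMIs of Gad1 and Gad2 together and at least 2 of Slc6a9. Against this background 14 of 16 members tested were called in the Gjd2 gate (44.1% of all genes), 8 higher and 6 lower. Cdh12 remained higher (0.94 ± 0.10 (SE), adjusted p = 1.90e-07) and Cdh22 lower (-2.73 ± 0.12 (SE), adjusted p = 6.07e-13). Pcdh19 turned from -0.21 to 1.31, Pcdh10 from -0.86 to 0.88 and Cdh4 from -0.67 to 0.93. Pcdh9 and Pcdh17 turned the same way (0.69 and 0.76 against the Slc6a9 gate), while Cdh7 turned from 0.37 to -0.74, all called in both settings. The part of the Gad-carrying cells of the Gjd2 gate in these turns was not tested.

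In the Vip gate 6 members were called higher, 4 of them protocadherins. Pcdh11x, an X-linked delta-1 member, had 60.9, 87.4 and 194 CPM in the Vip gate and 13.6, 16.4 and 18.3 CPM in the other cells (log2 change 2.46 ± 0.13 (SE), adjusted p = 6.07e-19). The next highest type gate, Slc17a8, had a mean of 21.0 CPM. Pcdh8, a delta-2 member whose product is known as arcadlin and is induced by neural activity, had 66.0, 122 and 172 CPM against 22.5, 42.2 and 58.2 CPM (log2 change 1.62 ± 0.07 (SE), adjusted p = 9.60e-22). Neither gene's ranges overlapped. Pcdh18 (1.29), Cdh18 (0.69), Cdh2 (0.36) and Pcdh10 (0.33) were the other members called higher, as log2 changes. The Vip gate was also set against the cells of the Gad gate outside it. There Pcdh10 was not among the members called. Pcdh11x (2.30), Pcdh8 (1.95), Pcdh18 (0.92), Cdh18 (0.91) and Cdh2 (0.37) were still called higher, and so was Cdh12 (0.42).

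Cdh20 was lower without overlap (1.99, 4.57 and 8.24 CPM against 9.55, 15.2 and 18.0 CPM, log2 change -1.53 ± 0.21 (SE), adjusted p = 2.86e-07), a call that did not hold without the cells of the wider marker lists (log2 change -1.18, adjusted p = 0.0535). Pcdh20 (0, 7.14 and 16.5 CPM against 10.7, 15.1 and 22.4 CPM, log2 change -1.23 ± 0.22 (SE), adjusted p = 2.42e-05) and Cdh10 (0, 3.83 and 10.0 CPM against 6.58, 9.81 and 11.7 CPM, log2 change -1.06 ± 0.26 (SE), adjusted p = 0.00153) were lower in 10 of 10 libraries with overlapping ranges. The gate held 33 to 152 cells per library, so Cdh10 rested on few UMIs in each. Of 24 members tested, 6 were called higher (12.5% of all genes), 11 lower (13.1%) and 6 by at least 2-fold (5.24%), with medians of -0.24 over members and 0.00 over all genes (log2). Batch 3 alone gave 11 calls of 25 members tested (14.9% of all genes), and without the cells of the wider marker lists 10 of 20 were called (16.8% of all genes). The change of Pcdh17 alone differed between batches 3 and 2 (1 of 25 members, 0.938% of all genes, difference -0.76 ± 0.17 (SE), adjusted p = 0.00837).

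In the Npy gate the delta-2 genes Pcdh19, known for an X-linked epilepsy, and Pcdh10 were higher. Pcdh19 had 81.5, 98.6 and 124 CPM against 45.6, 54.5 and 65.6 CPM (log2 change 0.84 ± 0.05 (SE), adjusted p = 1.52e-13), without overlap, and Pcdh10 had 106, 179.9 and 201 CPM against 58.6, 89.7 and 112 CPM (log2 change 0.91 ± 0.05 (SE), adjusted p = 2.43e-13). Both were higher in 10 of 10 libraries. Pcdh11x was lower without overlap (1.30, 4.68 and 12.1 CPM against 17.1, 19.7 and 23.2 CPM, log2 change -1.89 ± 0.17 (SE), adjusted p = 1.43e-09), as was Cdh7 (6.64, 12.8 and 18.7 CPM against 22.7, 30.6 and 33.9 CPM, log2 change -1.30 ± 0.11 (SE), adjusted p = 1.72e-10).

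Pcdh20 (0, 5.34 and 15.6 CPM against 11.0, 15.6 and 22.9 CPM, log2 change -1.19 ± 0.15 (SE), adjusted p = 5.90e-07) and Cdh10 (1.70, 4.55 and 7.80 CPM against 6.63, 10.0 and 12.0 CPM, log2 change -1.01 ± 0.17 (SE), adjusted p = 4.24e-05) were lower with overlap. The call for Cdh10 did not hold in batch 3 alone (adjusted p = 0.264). Calls numbered 7 higher (15.4% of all genes), 8 lower (13.3%) and 4 by at least 2-fold (3.88%) of 24 members tested, and the medians were 0.02 over members and 0.00 over all genes (log2). The Npy gate held the deepest cells and shared 277 cells with the Chat/Slc18a3 gate, in which Pcdh10 is also high. Batches 3 and 2 differed for 1 of 25 members (2.08% of all genes), Pcdh7 (difference 0.44 ± 0.09 (SE), adjusted p = 0.00374).

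**Figure D3:**
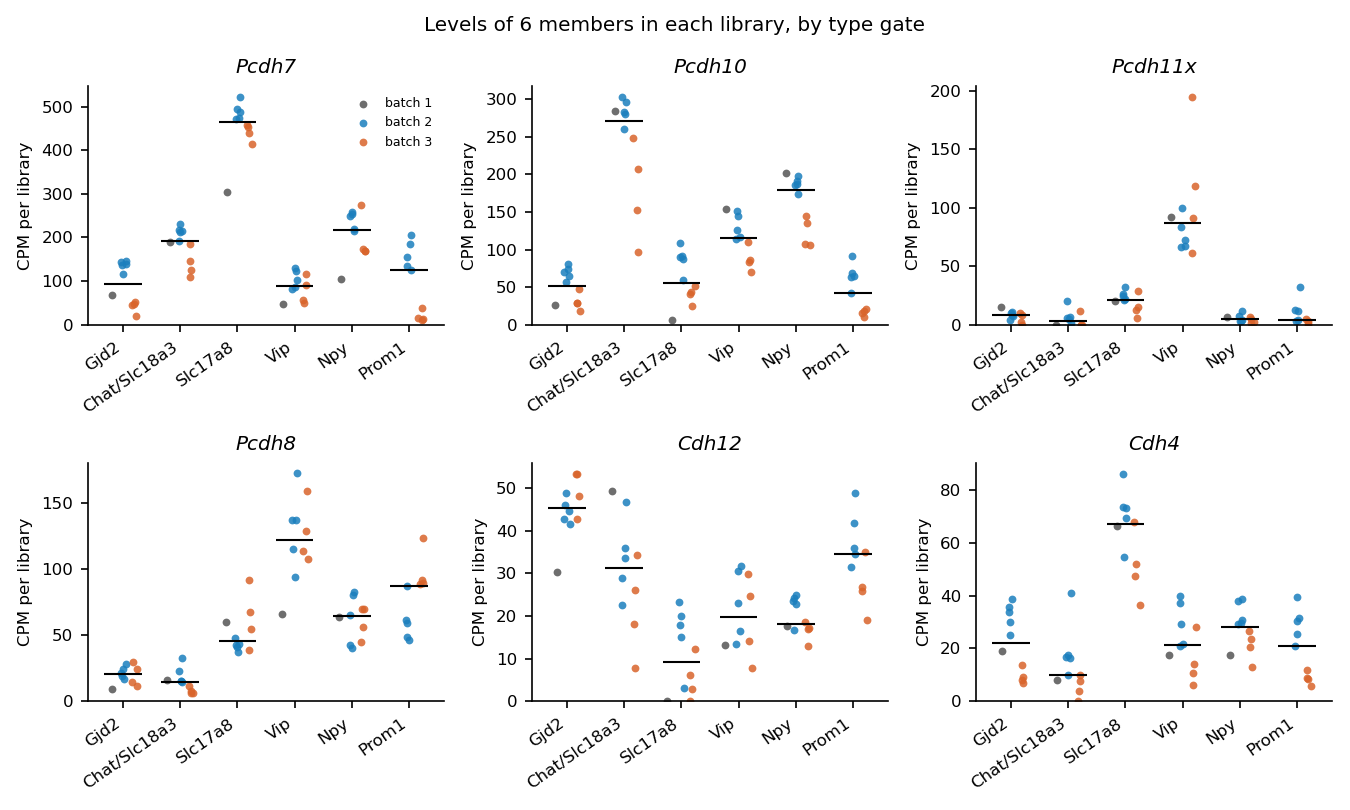
CPM per library of 6 members in the 6 type gates, coloured by batch, with the median as a bar (gates of at least 10 cells in the library). Pcdh7 in the Slc17a8 gate, Pcdh11x and Pcdh8 in the Vip gate and Cdh12 in the Gjd2 gate sit highest in their own panels, and the Prom1 gate divides by batch for Pcdh7, Pcdh10 and Cdh4.

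Cells of the Prom1 gate carried less of most members than the other cells, and here the batches differed most. The gate was usable in 9 libraries, since library 1 had 9 cells, and held 54 to 80 cells per library in batch 2 and 172 to 308 in batch 3. Pcdh9 had 12.9, 75.1 and 107 CPM in the gate and 116, 149 and 171 CPM in the other cells (log2 change -1.57 ± 0.21 (SE), adjusted p = 2.24e-05), without overlap, and Cdh20 had 1.57, 8.13 and 12.0 CPM against 12.6, 15.5 and 17.6 CPM (log2 change -1.58 ± 0.26 (SE), adjusted p = 1.79e-04). Pcdh10 (10.1, 41.7 and 91.5 CPM against 65.3, 110.5 and 119 CPM, log2 change -1.34 ± 0.18 (SE), adjusted p = 1.52e-05) and Cdh15 (0, 0.834 and 4.20 CPM against 2.87, 3.75 and 5.39 CPM, log2 change -1.73 ± 0.46 (SE), adjusted p = 0.00765) were lower in 9 of 9 libraries. The calls for Cdh20 and Cdh15 did not hold in batch 2 alone: the log2 change of Cdh20 was then -0.72 (adjusted p = 0.107) and that of Cdh15 -1.64 (adjusted p = 0.143). With the gate minimum doubled it was -1.87 for Cdh15 (adjusted p = 0.0798). The median gated cell of batch 2 had 4360 UMIs, so a level of 3.75 CPM gives few Cdh15 UMIs per library there. A library with none counts as lower, so the 9 of 9 says little for Cdh15. Pcdh8 (0.90), Cdh12 (0.72), Cdh7 (0.65) and Cdh2 (0.34) were the members called higher on the log2 scale.

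Among 24 members tested, 4 were called higher (15% of all genes), 17 lower (16.9%) and 16 by at least 2-fold (9.64%), with medians of -1.13 over members and 0.01 over all genes (log2). Batch 2 alone gave 10 calls of 26 members tested (13.7% of all genes) and batch 3 alone 22 of 24 (39.4% of all genes). The change differed between the batches for 12 of 24 members (11.8% of all genes). Pcdh7 lay at 126 to 205 CPM in the libraries of batch 2 and at 11.9 to 39.2 CPM in those of batch 3, with no overlap (difference of the log2 change -2.28 ± 0.19 (SE), adjusted p = 2.45e-13). Pcdh17 lay at 72.1 to 269 CPM and 28.6 to 55.8 CPM (difference -1.67 ± 0.19 (SE), adjusted p = 2.20e-09), and Pcdh9 at 75.1 to 107 CPM and 12.9 to 27.5 CPM (difference -1.74 ± 0.18 (SE), adjusted p = 1.11e-10).

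The make-up of the gate moved with batch as well. It took 1.6% of the cells of batch 2 and 9.5% of those of batch 3, and 42.2% of its cells in batch 2 and 64.5% in batch 3 lay in the Slc6a9 gate. In batch 2, 57.2% of the gated cells sat at the minimum of 2 Prom1 UMIs, against 37.1% in batch 3. The part of these shares in the batch difference was not tested. The whole Prom1 gate was also set against the cells of the Slc6a9 gate outside it, which carried no Gad1 or Gad2. Of the Prom1 gate, 14.7% of the cells had at least 2 UMIs of Gad1 and Gad2 together and at least 2 of Slc6a9. The part of this in the result was not tested. Against this background 3 of 15 members tested were called (20.5% of all genes): Cdh22 was lower (-1.53 ± 0.12 (SE), adjusted p = 6.24e-09) and Pcdh10 and Cdh4 were higher (0.78 ± 0.18 (SE), adjusted p = 0.00292, and 0.95 ± 0.22 (SE), adjusted p = 0.00400). Pcdh10 and Cdh4 thus had the opposite direction to that against all other cells, and Pcdh9 was not called there (0.31, adjusted p = 0.323).

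**Figure D4:**
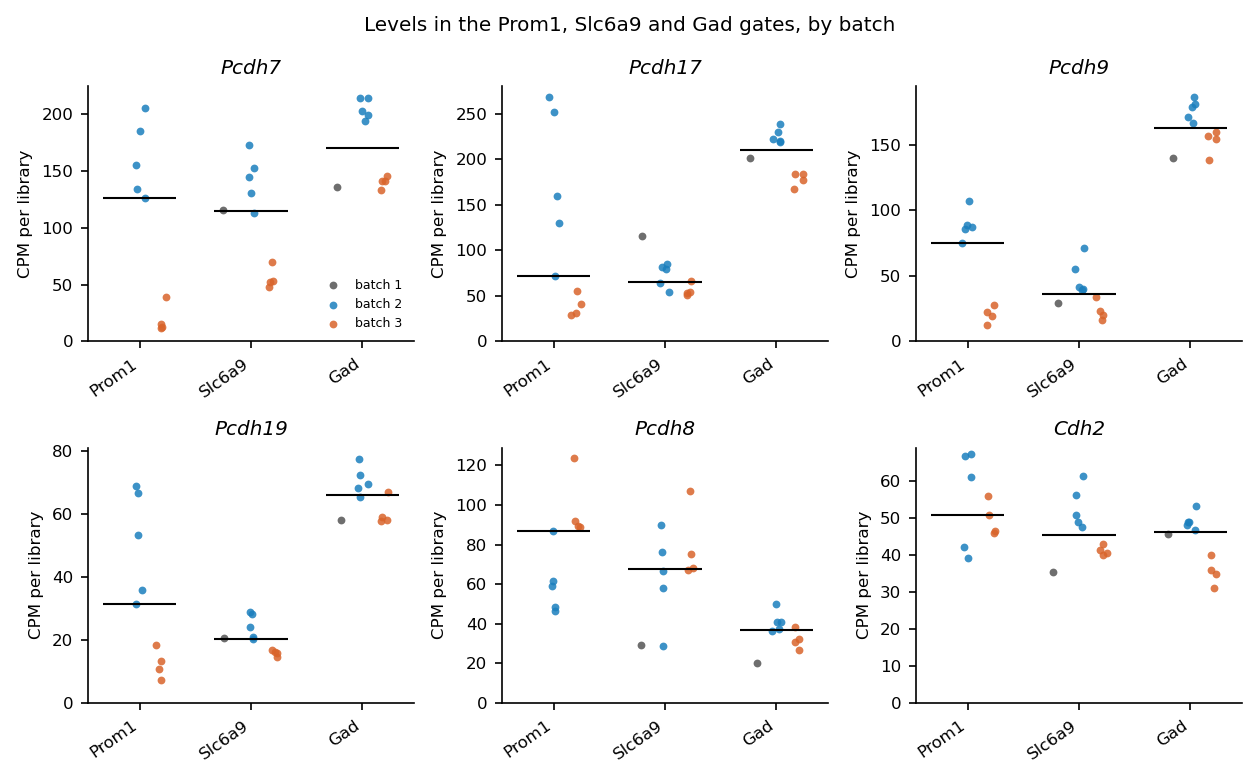
CPM per library of 6 members in the Prom1, Slc6a9 and Gad gates, coloured by batch, with the median as a bar. In the Prom1 gate Pcdh7, Pcdh17, Pcdh9 and Pcdh19 of batch 3 lie below every library of batch 2, whereas Cdh2 overlaps.

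Single members differed between the type gates, and no combination of members was tested. The cells in exactly 1 type gate (357 to 1705 per gate) were fitted together and each of the 15 pairs of gates was compared, with a pair counted as separated by a member called at an adjusted p below 0.05 over all genes and pairs and differing by at least 2-fold. Only 14 of the 35 members passed the filter on low counts here. These 14 members separated a pair in 81 of 210 tests, against 8.33% of all 120135 tests of genes and pairs. At least 1 pair was separated by 12 of the 14. The share of all genes that separate at least 1 pair was not taken, so this last count is a description only. Pcdh7 separated 11 pairs, Pcdh11x, Pcdh8 and Pcdh19 9 each, Cdh7 and Pcdh10 8 each, Cdh13 7, Cdh12 6, Cdh4, Cdh8 and Pcdh9 4 each and Cdh22 2. Cdh2 and Pcdh17 reached 2-fold in no pair (largest log2 differences 0.43 and 0.88, whatever their p).

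The pair with most separating members was Chat/Slc18a3 and Slc17a8 (8 of 14, 7.94% of all genes). Pcdh10, Cdh12, Cdh8 and Pcdh9 were higher in the former, and Cdh4, Pcdh11x, Pcdh8 and Pcdh7 in the latter. Slc17a8 and Vip were separated by 6 members (7.38% of all genes), with Pcdh7 and Cdh4 higher in the Slc17a8 gate and Pcdh11x, Pcdh8, Cdh12 and Cdh13 higher in the Vip gate. Chat/Slc18a3 and Npy were separated by 3 (6.92%), namely Cdh13, Pcdh8 and Pcdh19, all higher in the Npy gate. Vip and Npy were also separated by 3 (4.72%), with Pcdh11x higher in the Vip gate and Pcdh19 and Pcdh7 in the Npy gate. Gjd2 and Prom1 were separated by 2 (8.2%), Pcdh19 and Pcdh8. Single pair counts were less stable: 3 of those given moved by more than 1.5 times when 1 library was left out, Gjd2 and Prom1 to 5 without library 6 and 4 without library 7, Chat/Slc18a3 and Npy to 6 without library 2 and 5 without library 6, and Vip and Npy to 5 without library 6. Without a filter on low counts, 134 tests over 32 members passed.

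**Figure D5:**
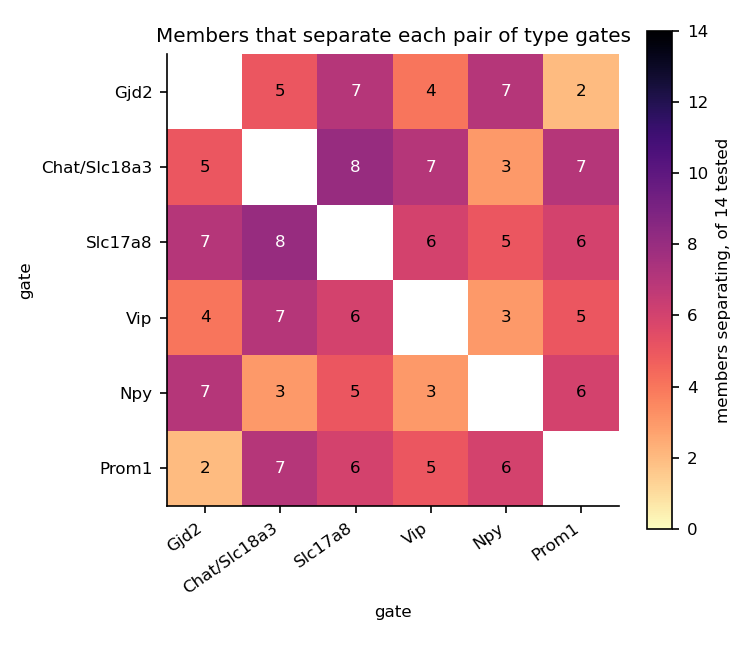
Number of members, of 14 tested, that separate each pair of type gates (called and at least 2-fold). The counts run from 2 for Gjd2 and Prom1 to 8 for Chat/Slc18a3 and Slc17a8.

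As sets, the members at a mean of 50 CPM or more differed between all 6 type gates. Pcdh7, Pcdh17 and Pcdh9 were in every set. The Gjd2 set held these 3 alone, and the Chat/Slc18a3 set added Pcdh10. The Slc17a8 set added Cdh4, Pcdh10 and Pcdh8, and was the only type gate with Cdh4. In the Vip set Pcdh8, Pcdh10, Pcdh11x, Cdh2 and Pcdh19 were added, with Pcdh11x in no other type gate. The Npy set added Pcdh10, Pcdh19, Pcdh8 and Cdh2, and the Prom1 set Pcdh8 and Cdh2. At 20 CPM the 6 sets also differed, and at 100 CPM 5 different sets were left. These sets are a description of means, with no test.

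Single cells were compared after each was thinned to 2000 UMIs, which left out shallower cells (2094 of 16415 in the Gad gate, 843 of 4556 in the Slc6a9 gate). A thinned cell carried 1.73 ± 0.166 different members in the Gad gate and 0.993 ± 0.233 in the Slc6a9 gate (mean ± SD, n = 10 libraries), against 3.65 and 1.5 as pooled means over all cells of these gates without thinning, the shallower cells included. The Npy gate had 1.74 ± 0.172 and the Gjd2 gate 0.948 ± 0.278. Pcdh7 was seen in 60.5% of thinned cells of the Slc17a8 gate and in 4.65% of those of the Prom1 gate, Pcdh10 in 39.6% of the Chat/Slc18a3 gate and 2.69% of the Prom1 gate, and Pcdh11x in 15.6% of the Vip gate and 0.661% of the Npy gate. The thinned cells of the Prom1 gate were mostly of batch 3: Pcdh7 was seen in 13.7% of 277 thinned cells of batch 2 and 1.91% of 940 of batch 3, and Pcdh10 in 8.66% and 0.957%. The share in the second gate of each pair (for Prom1, that of batch 3) is an upper bound for UMIs from free RNA there, at median depths of 4841 and 3981, 7462 and 3981, and 5500 and 7767.5 UMIs before thinning.

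The share of cells with a UMI was also set against the share that a Poisson spread of the same mean over all cells of the gate would give. For Cdh2 the ratio of the observed to this share was 0.950 to 1.02 in the 8 gates. Its mean level over these gates was 47.4 CPM, which gives few UMIs per cell. With so few UMIs the ratio stays near 1 whether or not the spread is even, so it cannot show an even spread for Cdh2. Pcdh7 and Pcdh17 had higher means over the gates (175 and 116 CPM), so their ratios are not set against that of Cdh2. For Pcdh7 the ratio was 0.673 in the Slc6a9 gate and 0.774 in the Gad gate, and 0.937 and 0.958 in the Slc17a8 and Chat/Slc18a3 gates. Cdh22 had 0.762 in the Slc6a9 gate. Pcdh17 lay below 1 in every gate, at 0.709 to 0.877.

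Pairs of members were examined where independence gave at least 20 cells with both. Of 26 such pairs in the Slc6a9 gate (median ratio of observed to independent 0.864), 3 were at 2 or more and 5 at 0.5 or less. Of 3713 thinned cells, 135 had UMIs of both Cdh22 and Pcdh7, where independence within each library gives 53.7 (ratio 2.51, above 1 in 10 of 10 libraries). Cdh22 was likewise found with Pcdh9 (71 cells, 31.6 under independence) and with Cdh7 (87 cells, 43.4 under independence). Pcdh8 was apart from Cdh22 (ratio 0.422), Cdh7 (0.454) and Pcdh7 (0.499). Pcdh7 and Cdh12 were apart too (0.436, 12 cells), as were Cdh7 and Pcdh17 (0.488, 14 cells). Cells of a gate share their library, and these ratios are a description with no test.

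In the Gad gate 169 pairs were examined and the median ratio was 1.03, with 2 pairs at 2 or more and 2 at 0.5 or less. Pcdh7 was found with Cdh10 (136 of 14321 thinned cells, 65.2 under independence) and Cdh7 with Cdh13 (70 cells, 33.7 under independence), each above 1 in 10 of 10 libraries. Pcdh20 was apart from Cdh13 (ratio 0.371) and Pcdh8 (0.419). In the Npy gate, where 2 of 26 pairs were at 0.5 or less and the median ratio was 1.03, Pcdh7 was apart from Cdh13 (0.366, 11 cells) and Pcdh8 (0.481, 26 cells). At 3000 UMIs per cell, several of the 15 pairs with a ratio of at least 2 or at most 0.5 no longer met these limits. In the Gad gate these were Cdh7 with Cdh13 (1.56), Pcdh7 with Cdh10 (1.86) and Pcdh20 with Cdh13 (0.534). In the Slc6a9 gate they were Cdh7 with Cdh22 (1.93), Cdh7 with Pcdh8 (0.661) and Pcdh7 with Pcdh8 (0.563). Pcdh7 with Pcdh8 in the Npy gate was at 0.513, and Cdh7 with Pcdh17 in the Gjd2 gate went from 0.493 to 0.990. The remaining pairs still met the limits, with ratios between 0.372 and 2.24.

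The catenins and other intracellular partners of these proteins were followed as a list of 20 genes. In the Slc6a9 gate against the Gad gate 4 of 18 tested were called higher (32.1% of all genes were) and 6 were called lower (29.1%), so these counts say nothing particular about the list. Among the genes called were Ctnnd2 (delta-catenin) at -1.16 ± 0.06 (SE), adjusted p = 1.36e-12, Ctnna1 (alpha-E-catenin, the actin link) at -1.03 ± 0.11 (SE), adjusted p = 3.04e-08 and Adam10 (a protease that cuts cadherins) at 0.81 ± 0.08 (SE), adjusted p = 1.01e-08, as log2 changes. Ctnna1 was also lower in the Chat/Slc18a3 gate (-1.33 ± 0.16 (SE), adjusted p = 1.05e-07), the Slc17a8 gate (-1.02 ± 0.19 (SE), adjusted p = 7.63e-05), the Gjd2 gate (-0.46 ± 0.09 (SE), adjusted p = 1.54e-04) and the Prom1 gate (-1.14 ± 0.21 (SE), adjusted p = 3.69e-04), but higher in the Vip gate (0.93 ± 0.10 (SE), adjusted p = 2.14e-09). Pkp4, a p120-related protein, was higher in the Slc17a8 gate (1.27 ± 0.11 (SE), adjusted p = 2.74e-11) and the Gjd2 gate (0.62 ± 0.07 (SE), adjusted p = 1.86e-07) and lower in the Chat/Slc18a3 gate (-0.95 ± 0.17 (SE), adjusted p = 4.31e-05), and it was also called higher in the Slc6a9 gate against the Gad gate (0.74).

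The WAVE complex gene Cyfip2 was higher in the Chat/Slc18a3 gate (0.68 ± 0.06 (SE), adjusted p = 4.74e-11) and the Npy gate (0.30 ± 0.03 (SE), adjusted p = 2.59e-08), which share 277 cells, and it was also called higher in the Gjd2 gate (0.09) and lower in the Prom1 gate (-0.33) and in the Slc6a9 gate against the Gad gate (-0.79). Ctnnd2 was higher in the Npy gate (0.50 ± 0.05 (SE), adjusted p = 2.32e-09) and lower in the Vip gate (-0.30 ± 0.07 (SE), adjusted p = 0.00150), where Wasf3 was higher (0.36 ± 0.09 (SE), adjusted p = 0.00190). Ctnnd2 was also called lower in the Gjd2 gate (-0.30) and the Prom1 gate (-0.45), and Wasf3 higher in the Gjd2 gate (0.32) and the Chat/Slc18a3 gate (0.24). Ctnnb1 (beta-catenin) was higher in the Slc17a8 gate (0.56 ± 0.07 (SE), adjusted p = 3.52e-08) and the Npy gate (0.12 ± 0.04 (SE), adjusted p = 0.0332). It was also called higher in the Chat/Slc18a3 gate (0.33) and lower in the Prom1 gate (-0.22) and the Vip gate (-0.18). Afadin, listed under its older symbol Mllt4, was higher in the Prom1 gate (0.67 ± 0.06 (SE), adjusted p = 3.84e-07) and called lower in the Gjd2 gate (-0.22) and the Chat/Slc18a3 gate (-0.25). Arvcf was lower in the Prom1 gate (-0.58 ± 0.19 (SE), adjusted p = 0.0240) and Adam10 was higher in the Gjd2 gate (0.35 ± 0.10 (SE), adjusted p = 0.00543). Against all other cells, 2 to 7 of the 18 or 19 partners tested were called higher in each type gate and 1 to 5 lower in 5 of them. Over all genes 10.6 to 23.9% were called higher and 13.1 to 24.5% lower in these comparisons, and in the Vip gate, for example, 2 of 18 partners were higher where 12.5% of all genes were. In the Npy gate no partner was called lower (edgeR), and 2 were lower at an unadjusted p below 0.05.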

How the data were processed

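Single retinal cells of 10 libraries were analysed. The authors deposited UMI counts per gene and cell, which per the submitters' processing notes involved Cell Ranger 2.1.0 and the mm10 build; how empty droplets, low-quality cells and doublets were removed is not given in the sources used here, and no doublet caller was run. Every column was matched to a library by its name, and 7109 of 27933 genes had no count. The members, the marker lists and the partner list were chosen with earlier results of these data known.

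Counts were summed per library and gate where the library had at least 10 gated cells. Libraries and gates were compared with edgeR 4.0.16 (R 4.3.3): TMM scaling, filterByExpr, the quasi-likelihood test with the library as a block, and Benjamini-Hochberg adjustment over all genes tested, the gating genes left out. The block is the library itself, since both groups of cells in a comparison come from it. Levels are CPM of the summed counts. Values over libraries are given for members called with at least a 2-fold change in the same direction in every library, at most 4 higher and 4 lower in a comparison by size of change, and for the 6 members of highest mean CPM over the 8 gates; of the partner list, at most 3 genes in a comparison by size of change are given with their errors, and their other calls by log2 change alone. Detection per cell used cells thinned to 2000 UMIs (3000 as an alternative). Alternatives were DESeq2 1.42.0 as test and scaling, no filter, no block, doubled gate minimums, a depth window, other backgrounds, each batch alone and each library left out. Scripts were tested on simulated data. Promoters came from RefSeq, gene positions from GENCODE. Python 3.11.15 with numpy 2.4.6, scipy 1.17.1 and pandas 2.3.3 was used. Intervals and floors cover counting error only.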

Additional observations from a re-analysis of the deposited data

Results flagged for a closer look

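Over 10 libraries, 54 series of a member's level in a gate were examined for a single library far from the others, and 4 were found; chance gives about 1 in 20 (5%) of such series. Cdh12 in the Gjd2 gate stood at 30.2 CPM in library 1, where the nearest library had 41.6 CPM; that library held 61 gated cells and 16 Cdh12 UMIs. Pcdh11x in the Vip gate stood at 194 CPM in library 9 (38 cells, 55 UMIs), and the nearest library had 118 CPM. Pcdh20 in the Slc6a9 gate stood at 4.89 CPM in library 5 (362 cells, 6 UMIs), the nearest at 1.42 CPM. Pcdh7 in the Slc17a8 gate stood at 305 CPM in library 1 (24 cells, 46 UMIs), the nearest at 414 CPM. Leaving out the library in question moved the log2 change of Cdh12 from 1.41 to 1.44, of Pcdh11x from 2.46 to 2.33, of Pcdh20 from -4.56 to -5.40 and of Pcdh7 from 1.56 to 1.55.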

How the results depend on the processing

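Of 174 alternative counts of members called over the 7 comparisons and the pairs together, 168 lay within 1.5 times the reported count. Of 315 alternative counts for the 15 single pairs of gates, 280 did and 35 did not: the pair of Chat/Slc18a3 and Slc17a8 ranged from 5 to 11, Slc17a8 and Vip from 4 to 9, Chat/Slc18a3 and Npy from 2 to 7, Vip and Npy from 3 to 8 and Gjd2 and Prom1 from 2 to 8. In batch 3 alone 11 members were called in the Chat/Slc18a3 gate and 11 in the Vip gate, in batch 2 alone 10 in the Prom1 gate, and without cells carrying markers of other classes 10 in the Vip gate, where 20 members were tested. Against cells of the Slc6a9 gate 3 members were called in the Prom1 gate, where 15 were tested, and Pcdh10 (0.78) and Pcdh9 (0.31) there changed sign. That background was set by the alternative's own construction and held no cell with Gad1 or Gad2. Without a filter on low counts, 134 pair tests passed, with 32 members tested in each pair and no share over all genes taken. Leaving out 1 library at a time gave 21 to 22 calls for Slc6a9 against Gad, 17 to 20 for Gjd2, 17 to 19 for Chat/Slc18a3, 10 to 15 for Slc17a8, 17 to 18 for Vip, 13 to 16 for Npy, 19 to 22 for Prom1 and 76 to 97 pair separations. Of 725 values of single members, 715 kept direction and side of the threshold and 8 lost the call; the cause was not tested. Leaving out cells of shared barcodes or of 3 narrow markers of other classes was added after seeing the data, and the former gave 14 to 22 calls in the 7 comparisons. For the former, and with 1 library left out, the shares of all genes called are not given. Those counts show only how far they moved.

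The library is the block that pairs both groups of cells. Without the block, 21 members were called for Slc6a9 against Gad, 17 for Gjd2, 17 for Chat/Slc18a3, 11 for Slc17a8, 14 for Vip, 13 for Npy, 20 for Prom1 and 83 pair separations were found. The shares of all genes called are not given for this setting, so these counts show only how far they moved. In each of the 7 comparisons 11 to 13 members were under the filter on low counts and were not tested. In the fit of the pairs only 14 of the 35 members passed the filter. The members left out of a fit were not tested in it, so nothing is said of their differences there. Some members left out of the pair fit, such as Pcdh18 and Cdh18, were called in comparisons of a gate with all other cells.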
